A study of Mus musculus with 4 samples.

Results

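The genes described here are 10 that encode contractile and contraction-linked proteins of smooth muscle other than actins, Myh11, Cnn1, Tagln, Smtn, Des, Mylk, Tpm1, Tpm2, Csrp1 and Kcnmb1. They were chosen by name, with earlier results of these data known. Every probe set that the array's annotation assigns to one of these symbols was taken. All 10 were measured, by 12 of the 12422 probe sets that are not array controls, or 10 of 8251 genes. Tpm2 and Csrp1 have 2 probe sets each and the others 1. The samples were seminal vesicles from 4 Nkx3.1 +/+ mice of strain C57Bl/6J aged 15 months, untreated as far as the labels say. The tissue was snap frozen, and biotin-labelled material made from its total RNA was read on Affymetrix Mu74AV2 GeneChips, with a separate array for each animal. All 4 arrays form a single group. There was thus no mutant, no other age and no other tissue to compare with, and the only contrast the design allows is between the individual mice, which are numbered 1 to 4 in series order as names only. Values are log2 expression values made by RMA, so a difference of 1 is a doubling. The labels do not say whether the mice shared a litter, a cage or a hybridisation day, so a difference between mice may also be one between preparations.

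The seminal vesicle is a coiled gland whose secretory epithelium is wrapped in a coat of smooth muscle that contracts to expel the fluid at ejaculation. In smooth muscle, calcium bound to calmodulin activates myosin light chain kinase, which phosphorylates the light chains of myosin and lets the motor pull on actin filaments. Tropomyosin lies along those filaments, and calponin, transgelin and smoothelin bind to them. Many smooth muscle contractile genes are controlled by serum response factor and its partner myocardin through a DNA element called the CArG box.

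Of the 10 genes, 8 gave clear signal in every mouse. All 8 had their top value in mouse 1, but the size of the excess ran from almost nothing in Mylk to 0.80 log2 units in Cnn1, and no gene passed the test for variance between mice. To set a level for signal, genes typical of other organs were used, 77 of them with 97 probe sets. Their 90th percentile on each array lay between 5.89 and 6.06. Of the 12 probe sets, 9 exceeded it on all 4 arrays, against 25.7% of all probe sets. The other 3, both for Tpm2 and the one for Kcnmb1, exceeded it on none. A probe set under this limit may still read a transcript that is present. Probe sets were not ranked against each other by level.

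**Figure D1:**
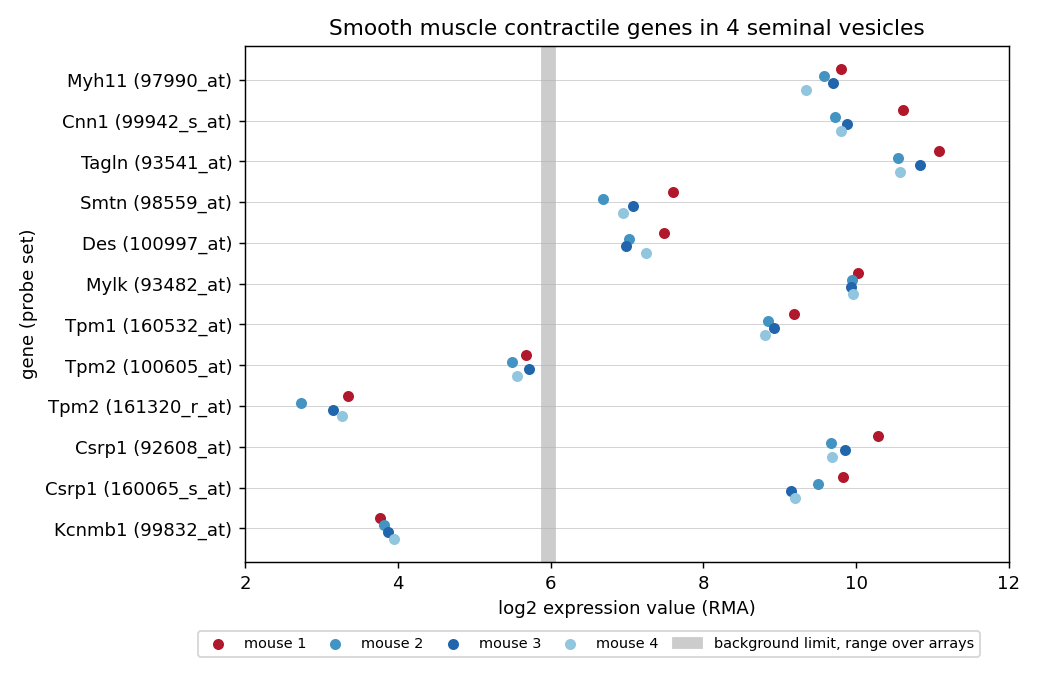
Log2 expression values (horizontal axis) of the 12 probe sets of the 10 contractile genes, 1 point per mouse, with the range over arrays of the background limit in grey. The red points of mouse 1 lie furthest right for all 9 probe sets above the limit, while the points of Mylk nearly coincide.

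Sequence upstream of the transcription start was taken for the members that RefSeq's table (build GRCm38.p6) held, 9 windows for 8 genes, with Csrp1 represented by 2 starts. Myh11 and Tagln had no window there and were not searched, so the counts below say nothing of them. Each window was searched on both strands over the 250 bases before the start for the CArG box (a pair of C, 6 letters that are A or T, and a pair of G) and for the MCAT element, CATTCC, to which TEAD factors bind. A perfect CArG box occurred in 0 of the 9 windows and in 1.47% of 32851 windows in the table. With up to 1 mismatch it occurred in the window of Tpm1 alone, at 2 places that begin 221 and 80 bases before the start, and in 18.6% of all windows. The MCAT element occurred in the windows of Smtn, Mylk and Tpm1, 3 of 9, and in 12.6% of all windows, and no match of one motif overlapped one of the other. These counts describe the letters in short windows and say nothing of binding, and a gene can use other starts and distant elements. The windows of Mylk and Tpm1 and the second of Csrp1 lie wholly inside the gene's span in RefSeq. Those of Cnn1, Tpm2 and Kcnmb1 lie partly inside it. All of these windows precede an internal start and not the outermost one. Shown here, 5′ to 3′ on the gene's strand with matches in capitals, are the windows of the 2 genes that varied most between the mice, Cnn1 at chr9:22099003-22099252 (plus strand) and Smtn at chr11:3539293-3539542 (minus strand), of the one that varied least, Mylk at chr16:34784700-34784949 (plus strand), and of Tpm1 at chr9:67049214-67049463 (minus strand), which held both motifs.
Cnn1: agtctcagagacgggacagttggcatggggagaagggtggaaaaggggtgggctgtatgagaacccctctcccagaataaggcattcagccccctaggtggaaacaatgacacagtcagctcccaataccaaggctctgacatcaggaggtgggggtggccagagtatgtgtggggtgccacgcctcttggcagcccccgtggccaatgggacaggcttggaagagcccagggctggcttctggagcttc
Smtn: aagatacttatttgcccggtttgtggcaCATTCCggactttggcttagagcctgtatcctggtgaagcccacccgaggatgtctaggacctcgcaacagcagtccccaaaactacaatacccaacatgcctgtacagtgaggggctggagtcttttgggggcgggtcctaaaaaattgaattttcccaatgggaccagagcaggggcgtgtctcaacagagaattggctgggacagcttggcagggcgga
Mylk: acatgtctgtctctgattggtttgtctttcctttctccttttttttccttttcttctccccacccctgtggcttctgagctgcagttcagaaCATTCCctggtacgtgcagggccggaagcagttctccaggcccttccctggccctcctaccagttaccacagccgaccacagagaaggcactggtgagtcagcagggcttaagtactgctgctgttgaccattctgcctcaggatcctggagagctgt
Tpm1: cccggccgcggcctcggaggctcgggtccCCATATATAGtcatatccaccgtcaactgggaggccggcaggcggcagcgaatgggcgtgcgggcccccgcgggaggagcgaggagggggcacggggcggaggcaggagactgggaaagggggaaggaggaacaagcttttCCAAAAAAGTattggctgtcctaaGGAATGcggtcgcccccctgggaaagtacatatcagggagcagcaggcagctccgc

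The motor and its kinase had a smaller spread between the mice than Cnn1 and Smtn, described next. Myh11, the smooth muscle myosin heavy chain and a marker of mature smooth muscle, had 9.80, 9.59, 9.69 and 9.34 in mice 1 to 4, a mean of 9.60 ± 0.20 (SD, n = 4; probe set 97990_at). Mouse 4 was the low animal here, 0.35 below the mean of the others, and mouse 1 was 0.26 above the mean of its others. The variance of Myh11 did not pass the test (adjusted p = 0.993, limma's variance model over 12422 probe sets). Mylk, the myosin light chain kinase, had 10.02, 9.95, 9.94 and 9.95, or 9.97 ± 0.036 (SD, n = 4; 93482_at). Its 4 values lay within 0.079 log2 units, the narrowest range of the 12 probe sets. The median range over all probe sets was 0.250.

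Of the filament-associated proteins, Cnn1 and Smtn had the largest SD of the 12 probe sets. Cnn1, calponin 1, which binds actin and restrains the myosin ATPase, had 10.61 in mouse 1 and 9.73, 9.88 and 9.81 in mice 2 to 4 (10.01 ± 0.41, SD, n = 4; 99942_s_at). Mouse 1 stood apart from the 3 others, which lay close together, and the highest value was 1.84-fold the lowest on the linear scale. Smtn, smoothelin, found in contractile smooth muscle cells, had 7.61, 6.68, 7.08 and 6.94 (7.08 ± 0.39, SD, n = 4; 98559_at), with mouse 1 high, mouse 2 low and a 1.90-fold range. Tagln, transgelin or SM22 alpha, an early and abundant smooth muscle protein, had 11.09, 10.54, 10.83 and 10.57 (10.76 ± 0.26, SD, n = 4; 93541_at). Mice 1 and 3 were the higher pair for Tagln and mice 2 and 4 the lower pair.

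Neither Cnn1 nor Smtn passed the threshold once all probe sets were counted, which does not show that the mice were alike. The adjusted p of Cnn1 was 0.372 and its unadjusted p 0.00402, and those of Smtn were 0.424 and 0.00488 (limma's variance model, 4 mice). Over all alternative settings the adjusted p stayed between 0.205 and 0.997 for Cnn1 and between 0.189 and 0.989 for Smtn. Without mouse 1, the animal furthest from the mean for both, the SD of Cnn1 was 0.077 and that of Smtn 0.20. With all 4 mice they were 0.41 and 0.39.

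The tropomyosins, coiled-coil dimers that lie along the actin filament, could be followed for Tpm1 only. Tpm1 had 9.18, 8.84, 8.93 and 8.81 (8.94 ± 0.17, SD, n = 4; 160532_at), with mouse 1 above 3 similar animals by 0.32 on average. Its 4 deviations from its own mean were the closest of the 10 genes to their mean profile. The brighter probe set of Tpm2 had 5.68, 5.50, 5.71 and 5.57 (5.61 ± 0.10, SD, n = 4; 100605_at), under the background limit, with mouse 3 the highest. The other had 3.34, 2.74, 3.16 and 3.28 (3.13 ± 0.27, SD, n = 4; 161320_r_at), also under it, with mouse 2 low. Both put mouse 2 lowest but they disagreed on the highest mouse. The dimmer one lay far under the limit and the brighter one nearer to it, so neither was taken as clear signal for Tpm2.

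Des, desmin, the intermediate filament protein of muscle cells, had 7.49, 7.03, 6.99 and 7.25 (7.19 ± 0.23, SD, n = 4; 100997_at). Mouse 1 was highest, as for the filament-associated proteins, but mouse 4 came second and mouse 3 was lowest. Csrp1, a LIM-domain protein that links actin filaments to alpha-actinin and zyxin, had 10.28, 9.67, 9.85 and 9.68 (9.87 ± 0.28, SD, n = 4; 92608_at). Its other probe set had 9.83, 9.51, 9.15 and 9.20 (9.42 ± 0.32, SD, n = 4; 160065_s_at). The 2 probe sets put mouse 1 above the mean of the others by the same amount, 0.55, and ordered the other mice differently, with mouse 2 lowest in the first and second highest in the other. The suffix _s_at, which the probe set of Cnn1 has as well, is Affymetrix's mark for probes that may be shared by related transcripts.

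Kcnmb1, the beta 1 subunit that raises the calcium sensitivity of the large-conductance potassium channel of smooth muscle, had 3.76, 3.81, 3.87 and 3.95 (3.85 ± 0.081, SD, n = 4; 99832_at). All its values were below the limit, and mouse 1 was its lowest animal. Its pore-forming partner Kcnma1 was also under the limit, at 3.97, 4.13, 4.05 and 4.25.

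**Figure D2:**
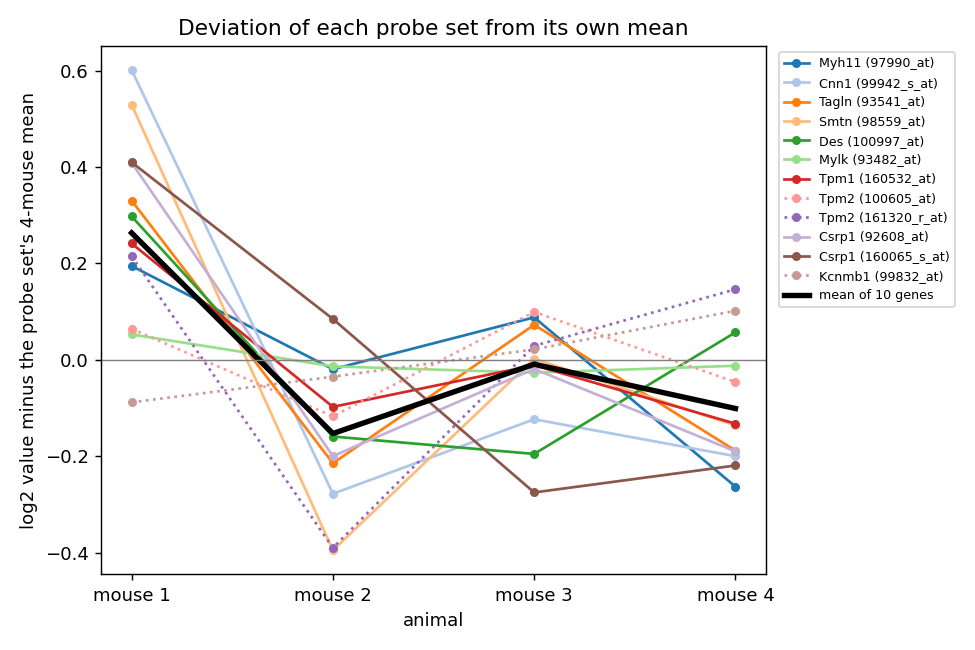
Each probe set's log2 value minus its own mean over the 4 mice (vertical axis), by mouse, with solid lines for the 9 probe sets above the background limit, dotted lines for the 3 under it, and the mean of the 10 genes (brightest probe set of each) in black. In mouse 1 the points run from -0.088 for Kcnmb1 through 0.053 for Mylk to 0.60 for Cnn1, and 10 of the 12 lines have their top point there, all but those of Kcnmb1, highest in mouse 4, and the brighter probe set of Tpm2, highest in mouse 3.

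Set side by side, the 8 genes above the limit shared their highest animal, mouse 1, and differed in the order of the others. The average deviation of the 10 genes from their own means, each gene by its brightest probe set, was 0.26, -0.15, -0.0092 and -0.10 for mice 1, 2, 3 and 4. Over all 8251 genes the same averages lay between -0.011 and 0.0063. RMA equalises the arrays, so averages over that many genes stay near 0 and give no scale for 10 genes. Among the other gene lists described below, the largest such averages were 0.13. They were those of the actins and of the fibroblast and matrix genes in mouse 1, and of the luminal epithelium genes in mouse 2. Mouse 1 was the highest animal for 10 of the 12 probe sets, mouse 3 and mouse 4 for 1 each and mouse 2 for 0. Over all probe sets the shares were 25.8% for mouse 1, 21.6% for mouse 2, 26.1% for mouse 3 and 26.5% for mouse 4. Mouse 1 exceeded the mean of the others by more than 0.5 in 4 of the 12 probe sets, Cnn1, Smtn and both of Csrp1, against 0.386% of all probe sets, and lay as far below it in 0, against 0.435%. For the other mice the same margin was exceeded downward in 2 probe sets in mouse 2 (Smtn and the dim one of Tpm2, against 0.314% of all), and in 0 in mouse 3 (0.483%) and mouse 4 (0.829%). It was exceeded upward in 0 in mouse 2 (1.67%), mouse 3 (0.58%) and mouse 4 (0.217%). The lowest animal was mouse 2 for 6 probe sets (36.7% of all), mouse 3 for 3 (22.2%), mouse 4 for 2 (20.3%) and mouse 1 for Kcnmb1 (20.7%). Since the genes were chosen with earlier results known, these counts beside the shares of all probe sets are description and not a test. Without mouse 1 the SD of the averages over the remaining mice was 0.073, against 0.185 with all 4 mice. Mouse 1 had the average furthest from 0, so leaving it out was bound to lower this SD. In whole tissue, more smooth muscle cells in a piece and more of these RNAs per cell cannot be told apart.

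By the variance test 0 of the 12 probe sets passed an adjusted p of 0.05 (limma's variance model), against 0.282% of all probe sets. At an unadjusted p under 0.05 stood 6 of 12, those of Cnn1, Smtn and Tagln, both of Csrp1 and the dim one of Tpm2, against 5.44% of all. Set beside that share, this count too is description only, given how the genes were chosen. Without mouse 1 this count was 1, the dim probe set of Tpm2 at an unadjusted p of 0.021, while Cnn1 was at 0.71, Tagln at 0.26, Smtn at 0.15 and Csrp1 at 0.57 and 0.17. The SD of 8 of the 12 probe sets was smaller by more than 1.5 times without mouse 1, and besides Cnn1 and Smtn these were Tagln (0.16), both of Csrp1 (0.10 and 0.19), Tpm1 (0.062), Des (0.14) and Mylk (0.0080). Without mouse 2 the same held for the dim probe set of Tpm2 (0.094), without mouse 4 for Myh11 (0.11) and without mouse 3 for 0. Leaving out an animal with the top value tends to lower an SD. For these counts without a mouse, by p or by SD, no share over all probe sets was computed. They are therefore description only. At the adjusted threshold 0 members passed under every alternative setting. The median SD of the 12 was 0.24, and that of all probe sets 0.11. The test has 3 residual degrees of freedom and many probe sets to correct for, so a probe set that missed it may still have differed between mice.

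**Figure D3:**
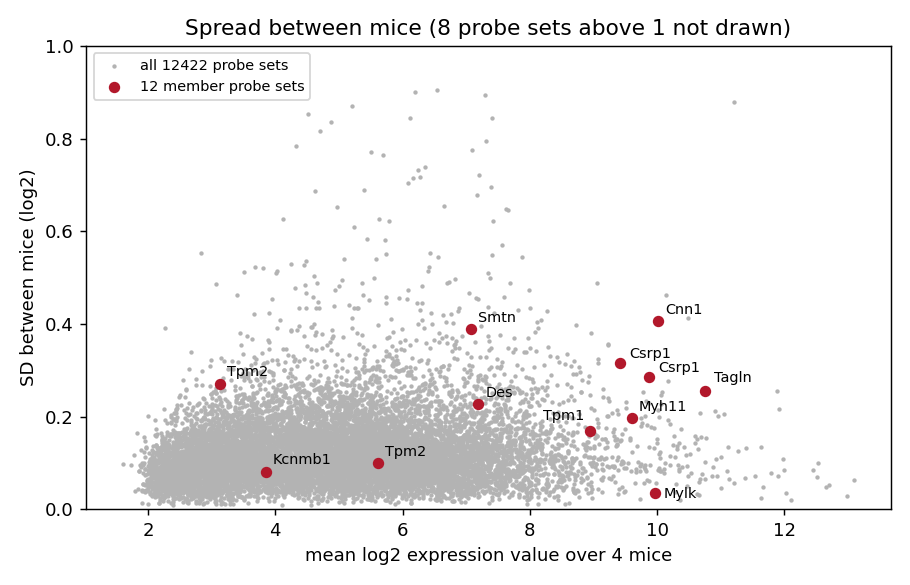
SD between the 4 mice (vertical axis, log2) against mean log2 value (horizontal axis) for all 12422 probe sets in grey and the 12 of the contractile genes in red, with 8 probe sets of SD above 1 outside the axis. Cnn1 and Smtn lie near the upper edge of the grey points at their signal, at 0.41 and 0.39, and Mylk near the lower edge at 0.036.

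The actins, the filament partners of these proteins, leaned the same way, with all 6 above the background limit, 4 highest in mouse 1 and a median difference of mouse 1 from the others of 0.36, as in the contractile genes. Acta2, the vascular and visceral alpha actin, had 9.12, 8.57, 8.91 and 8.64, and Actg2, the enteric gamma actin, 10.55, 10.03, 9.91 and 10.18. Acta1 and Actc1, named after their values were seen, were also highest in mouse 1, at 9.82 and 8.71. The cytoplasmic actins, likewise named afterwards, differed from each other, with Actb lowest in mouse 1, at 7.43 against 8.59, 8.02 and 7.90, and Actg1 at 10.40, 10.31, 10.41 and 10.11, 0.12 higher in mouse 1 than the mean of the others. Of the actin probe sets, that of Actb has the suffix _s_at and those of Actg2 and Actc1 the suffix _f_at. Whether these read their own gene alone was not tested, so the 6 actins may not be separate readings.

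Other parts of the contractile machinery were counted in the same way. Of 8 measured genes of light chain phosphorylation and thin filament control, 4 were above the background limit and 4 were highest in mouse 1, with a median difference of mouse 1 from the others of 0.022. Myl9, the regulatory light chain that Mylk phosphorylates, had 6.89, 6.32, 6.48 and 6.30, the only gene of the 8 with mouse 1 more than 0.5 above the others. Myl6, the essential light chain, had 4.76, 4.73, 4.71 and 4.73 and was under the limit. Of 23 genes of dense plaques and cytoskeletal linkers, 10 exceeded the limit, 5 had their top value in mouse 1 and the median difference was -0.0047. Vcl, vinculin, had 7.73, 7.87, 7.49 and 7.66, and Tln1, talin 1, had 9.83, 9.75, 9.86 and 9.76. The 2 linker genes in which mouse 1 exceeded the others by more than 0.5, named for that, were Pdlim3 (0.84) and Itga5 (0.74), both under the limit.

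Of 12 genes of calcium handling and membrane excitability, 1 was above the limit and 3 were highest in mouse 1. That gene, Cav1, the caveolar coat protein, named after its values were seen, had 7.81, 7.44, 7.55 and 7.17. Cacna1c, the pore of the L-type calcium channel, was under the limit at 4.27, 4.32, 4.43 and 4.30. Of 7 receptor and cyclic nucleotide signalling genes 1 was above the limit and 2 were highest in mouse 1. Adra1b, an alpha 1 adrenoceptor, had 4.46, 4.36, 4.57 and 4.63, and Ednrb, an endothelin receptor, 2.65, 2.43, 2.61 and 2.63, both under it.

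Of 16 genes of smooth muscle transcription control, 6 were highest in mouse 1 and the median difference was 0.046. Mrtfa, a myocardin-related coactivator of serum response factor, had 6.11, 6.04, 6.19 and 6.00, and Mef2a, a MADS-box factor, 6.18, 6.42, 6.09 and 5.97. Srf and Myocd were not analysed here. Fhl1, a LIM-domain protein of muscle, was the only one of the 16 with mouse 1 more than 0.5 above the others, at 8.36 against 7.82, 7.87 and 7.73, and was named for that. The paralogues of the 10 genes, mostly forms of non-muscle or other muscle cells, had 3 of 13 highest in mouse 1 and a median difference of 0.0097. Myh9, a non-muscle myosin heavy chain, had 7.99, 8.10, 7.84 and 7.99, and Myh10, another, 3.20, 3.36, 3.51 and 3.55. No gene of these lists, the actins included, was called by the variance test (limma, 0 of 85 genes at an adjusted p of 0.05 and 10 at an unadjusted p under 0.05). By the same test 16 of all 8251 genes, each by its brightest probe set, were called, and 4.93% were at an unadjusted p under 0.05.

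**Figure D4:**
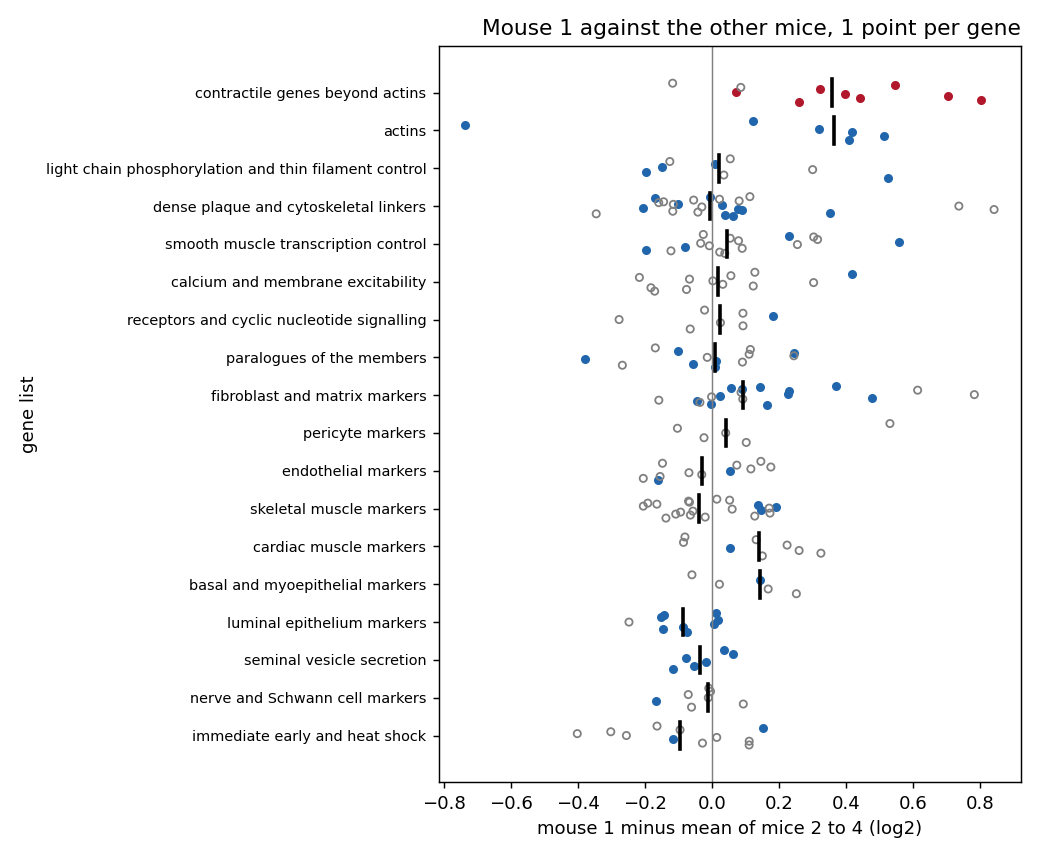
Value of mouse 1 minus the mean of mice 2 to 4 (horizontal axis, log2) for each measured gene of 18 lists, filled where the gene was above the background limit on all 4 arrays and open where it was not, with the list's median as a black bar. The contractile genes and the actins both have a median of 0.36, the basal and myoepithelial and the cardiac lists 0.14 each and the fibroblast list 0.091, and the other 13 lists lie between -0.096 and 0.046.

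Markers of other cells were read on the same arrays. Of 18 fibroblast and matrix genes 11 exceeded the limit, 10 had their top value in mouse 1 and the median difference was 0.091, and 4 were at an unadjusted p under 0.05. Col1a1 had 7.05, 6.76, 7.03 and 6.88 and Col1a2 had 7.35, 7.19, 7.42 and 7.45. In 2 of the 18, named for that, mouse 1 exceeded the others by more than 0.5, in Postn, a matrix protein, by 0.78 and under the limit, and in Mgp, matrix Gla protein, by 0.61 and above the limit on 3 arrays. Of 9 luminal epithelium genes 8 were above the limit and 0 highest in mouse 1, with a median difference of -0.086. The keratin Krt8 had 8.44, 8.50, 8.43 and 8.63, and Krt18 had 8.06, 8.37, 7.97 and 8.27. Of 6 seminal vesicle secretion genes all 6 were above it and 2 highest in mouse 1, with Svs2 at 12.45, 12.67, 12.54 and 12.48 and Svs4 at 12.95, 13.0, 12.99 and 13.01. Endothelial genes were above the limit in 2 of 11 cases and highest in mouse 1 in 3, with Pecam1 at 7.10, 7.24, 7.06 and 7.48 and Cdh5, under it, at 3.90, 4.14, 4.17 and 4.0. Whether the share of stroma in the pieces of tissue has a part in the values of mouse 1 was not tested.

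The listed genes of striated muscle, which shares Des and Tpm1 with smooth muscle, were largely under the limit. These lists leave out Acta1 and Actc1, which were counted with the actins and were above it. Of 20 skeletal muscle genes 3 were above it and 4 highest in mouse 1, with a median difference of -0.039. Ckm, the muscle creatine kinase, had 4.93, 4.90, 5.18 and 5.13 and Myh1, a fast myosin, 2.17, 2.21, 2.11 and 2.26. The 3 above the limit, named after their values were seen, were Pvalb, Tnnc2 and Casq1. All 3 were highest in mouse 1, which exceeded the mean of the others by 0.19, 0.15 and 0.14. Of 8 cardiac genes 1 was above the limit and 4 were highest in mouse 1, with a median difference of 0.14. Myh6 had 2.77, 2.58, 2.57 and 2.71 and Tnnt2 4.07, 3.92, 3.95 and 3.36. Pericyte genes were above it in 0 of 5 cases and highest in mouse 1 in 2, with a median difference of 0.041 and Rgs5 at 4.08, 3.96, 4.03 and 3.96 and Pdgfrb at 3.64, 3.61, 3.55 and 3.84. Mcam, named for it, was the only pericyte gene with mouse 1 more than 0.5 above the others, by 0.53. Basal and myoepithelial genes were above it in 1 of 5 and highest in mouse 1 in 3, with a median difference of 0.14, and had Krt5 at 4.98, 4.6, 4.79 and 4.81 and Krt14 at 4.55, 4.25, 4.41 and 4.49.

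RNA quality was read from the array's controls, as the signal at the 3′ end minus that at the 5′ end. For beta-actin this was 1.08, 0.82, 1.02 and 0.98 in mice 1 to 4, highest in mouse 1 and lowest in mouse 2, as the averaged contractile genes were. For Gapdh it was -0.12, -0.15, -0.15 and -0.13. Their part in the differences between the mice was not tested. Immediate early and heat shock genes were above the limit in 2 of 11 cases and highest in mouse 1 in 2, with Fos at 3.08, 2.86, 3.12 and 2.92 and Fosb at 5.61, 5.48, 5.71 and 5.74. The arrays were otherwise alike, with medians between 4.95 and 4.98 and, for the 6 pairs of arrays, a Pearson's r between 0.992 and 0.994 over probe sets, which are not independent of each other.

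Genes with profiles close to that of the contractile genes were sought among 2853 other genes with a mean above 6.00, the limit averaged over arrays, by the root mean square difference of the 4 deviations from the contractile genes' average. The closest was Tspan9, a tetraspanin, at 0.025, with 7.34, 6.93, 7.07 and 7.04 in mice 1 to 4. Gars, the glycyl-tRNA synthetase, followed at 0.026, Myo7a, an unconventional myosin, at 0.033, Rbpms, an RNA-binding protein, at 0.033, Dpagt1, an enzyme of N-glycan synthesis, at 0.041 and Cryzl2 at 0.047. The contractile genes themselves lay between 0.034 for Tpm1 and 0.21 for Kcnmb1 from their own average. Nearer to it than Tpm1 lay 4 of these 6 other genes, but they were picked by this same distance as the closest of 2853. Their nearness thus follows from how they were picked, and shared control was not tested.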

How the data were processed

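The authors deposited 1 table of log2 values, 1 per probe set and array. The submitters' processing notes name RMA, a method that subtracts background, equalises the arrays and fits each probe set's probes together, so a shift of most genes at once would not show. The version, and which arrays were processed together, were not given in the sources used. A range of 1.47 to 13.18 set the scale as log2. Precision is limited by there being 4 arrays, and p-values cover only the spread between these samples.

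The table held 12488 probe sets, and 66 array controls were left out. One gene was given for 10833 probe sets by the platform annotation, several for 396 and none for 1193, and 10817 of the first kind matched RefSeq (GRCm38.p6, used for names) by gene ID. Probe sets with several genes or none were tested but not named. Where a gene had several probe sets, the brightest on average stood for it. The variance of each probe set was set against limma's prior variance (robust, with mean signal as trend, 8.06 prior degrees of freedom) by an upper-tail F test with Benjamini-Hochberg adjustment over 12422 probe sets. On simulated data the test called most probe sets whose SD was raised far above the rest and few of those raised less. A 19-list gene table was used, and the members and lists were chosen with earlier results of these data known. Named by rule were every probe set of the members, the first 2 measured genes of each list other than that for other organs, called genes, and the 6 nearest profiles. Further genes were named after their values were seen, as marked where they appear. Alternatives covered array scaling, leaving out each mouse, the prior, filters, background limits and how probe sets and members were combined. Promoter windows came from RefSeq (GRCm38.p6). R 4.3.3, limma 3.58.1, Python 3.11.15 and matplotlib 3.10.9 were used.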

Additional observations from a re-analysis of the deposited data

Results flagged for a closer look

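Dixon's test at the 95% level was applied to 53 results, those named by the rule above and the members' average deviation. Genes named after their values were seen were left out. In 1 result a sample's gap to its nearest neighbour was too large a share of the whole range of the 4 mice. It was S100b, a Schwann cell gene named from the nerve list, with 2.90, 2.89, 2.92 and 3.07 in mice 1 to 4 and a ratio of 0.831, just past the critical value, all under the background limit. Chance gives about 5% of groups of 4, and 5.09% of all probe sets passed. In that list 1 of 7 genes was above the limit, and Mbp, the other gene named from it, had 5.06, 5.13, 4.84 and 4.95. None of the 12 probe sets of the contractile genes passed, with Cnn1 nearest at 0.824.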

How the results depend on the processing

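No member was called under any of the 11 alternative settings of the variance test, and none of the 125 values of single probe sets or genes under them changed its call. The number of member probe sets at an unadjusted p under 0.05, 6, was 1 without mouse 1 and between 5 and 7 without each of the others. The share over all probe sets was not computed for these settings, so the counts are description only. The number of member probe sets above the background limit, 9, was 10 with the limit at the other organs' 75th percentile or the array median, which added the brighter probe set of Tpm2, and 9 otherwise, leaving out each mouse included. The SD of the members' average deviation over the mice, 0.185, ran from 0.073 without mouse 1 to 0.227 without mouse 3. It stayed between 0.171 and 0.230 with other scalings, filters and ways to combine probe sets and genes. Mouse 1 kept the highest average in all of these that included it, while the average of mouse 3 turned to 0.079 without mouse 1, since deviations then refer to the 3 other mice. Over all probe sets the number called, 35, was 15 with a non-robust prior, 23 without mouse 2, 17 without mouse 4, 0 when only probe sets brighter than the mean limit were tested and 1 when only those above the median were. The number above the background limit, 3195, was 5479 with the 75th percentile and 5834 with the array median. No paired analysis was possible because the labels give a single group. At the main background limit, Tpm2 and Kcnmb1 were too dim to be followed.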
